A study of Mus musculus with 6 samples.

Results

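The renin-angiotensin genes described here are *Ren1*, *Agt*, *Ace*, *Enpep*, *Lnpep*, *Agtr1a*, *Agtr1b*, *Agtr2* and *Mas1*, which were chosen by symbol for their known place in the pathway, with earlier results of these data known. All 9 were found among the 24972 gene symbols of the table. The RNA-Seq compared isolated lung endothelial cells (iLECs), which are CD31-positive cells captured on antibody-coated magnetic beads from enzymatically digested mouse lungs at P7. Control samples (n = 3) carried the floxed *Atp6ap2* allele (PRR (*Atp6ap2*)fl/Y in the labels) without Cre, and iECKO samples (n = 3) carried the same allele with *Cdh5*-CreERT2, a Cre recombinase that is switched on by tamoxifen and expressed from the endothelial *Cdh5* promoter. Every pup of either genotype received tamoxifen (100 μg) by mouth on P1, P2 and P3. As controls lacked Cre, the presence of Cre and the loss of *Atp6ap2* cannot be told apart. The labels give the strain as C57BL/6, whereas the methods describe a mixed CD1 and C57BL/6 background, and the replicates are described as biological, so *P* values measure the spread between these samples.

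In the renin-angiotensin system, the protease renin cuts angiotensinogen, the product of *Agt*, into angiotensin I, and angiotensin-converting enzyme, the product of *Ace* on the luminal face of endothelium, trims it to the vasoconstrictor angiotensin II. Aminopeptidase A (*Enpep*) takes off the first residue of angiotensin II to give angiotensin III, type 1 receptors (*Agtr1a* and *Agtr1b* in rodents) carry most of its pressor actions, and the type 2 receptor (*Agtr2*), the Mas receptor (*Mas1*, for angiotensin-(1-7)) and insulin-regulated aminopeptidase (*Lnpep*, which binds angiotensin IV) bind the peptide or its fragments. Lung capillaries are a classical site of conversion of angiotensin I, and the (pro)renin receptor encoded by *Atp6ap2*, the X-linked gene deleted here, binds renin and its precursor and is also an accessory protein of the vacuolar proton pump.

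In short, *Enpep*, *Agt* and *Agtr1a* fell in iECKO iLECs to between 27.4% and 36.9% of their control means. *Ace*, by far the most abundant of these transcripts, stood at 70.0% of its control mean without passing the test, *Lnpep* overlapped between genotypes, *Ren1* was listed at 0 in every library, and *Agtr1b*, *Agtr2* and *Mas1* were close to the lowest values the libraries could show. Transcripts that mark pericytes and fibroblasts were lower in the same libraries, to 33.8% and 31.1% of their summed control levels. In such bulk samples, fewer cells of a type and less RNA per cell cannot be told apart.

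The values are normalized counts, which the authors had already scaled between libraries, with totals between 26243878 and 28725799 per library. The step between the lowest values of a library, which is about what 1 read is worth, was 2.30, 2.34 and 2.26 in control replicates 1 to 3 and 1.87, 1.51 and 1.86 in iECKO replicates 1 to 3. By these steps the iECKO libraries were between 1.25 and 1.55 times as deep as the shallowest control library, so low values were better resolved in iECKO samples. Differences were tested with limma on log2(normalized count + 1) over the 14456 genes that reached a value of 10 in 3 libraries or more, with Benjamini-Hochberg adjustment over all of them and a threshold of 0.05. Fold changes are on that log2 scale, which understates those of low genes. Across the table, 1193 genes (8.25%) passed the threshold, of which 719 (4.97%) were lower and 474 (3.28%) higher in iECKO samples, and the median log2 fold change was 0.00. The split by direction changed with the setting. With library size scaling, 599 genes were lower and 573 higher. Without control replicate 2 it was 362 lower and 461 higher, and without iECKO replicate 3 it was 176 lower and 28 higher.

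The libraries did not all match the male genotype in their labels. *Xist*, the noncoding RNA that coats the inactive X chromosome, was at 37704, 44402 and 31.7 normalized counts in control replicates 1 to 3 and 39442, 19.3 and 47487 in iECKO replicates 1 to 3, and the Y-linked *Ddx3y* had 172.9, 0 and 4554 in controls and 0, 4656 and 11.3 in iECKO samples. Only control replicate 3 and iECKO replicate 2 therefore looked as fl/Y samples would, and each genotype held 1 such library. The paper's control and iECKO groups comprised fl/Y males and fl/fl females, and it reports the use of neonates of both sexes. It does not give the sex of these libraries. Results are given below with presence of *Xist* as a covariate and, in an alternative added after the data were seen, within the 4 libraries high in *Xist*.

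The targeted gene followed the labels. *Atp6ap2* (chrX:12587801-12617049, mm10) measured 7490.2, 5815 and 5681 normalized counts in control replicates 1 to 3 and 4219.8, 2336 and 1982 in iECKO replicates 1 to 3. The genotypes did not overlap, and iECKO replicate 1 kept the most transcript of the iECKO libraries. The mean fell from 6329 ± 1008 to 2846 ± 1203 (SD, n = 3 each), 45.0% of control, with a log2 fold change of -1.22 (SE 0.26, adjusted *P* = 0.0306). The adjusted *P* rose to between 0.0628 and 0.104 when control replicate 1, 2 or 3 or iECKO replicate 2 or 3 was left out.

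Of the 9 renin-angiotensin genes, 6 passed the filter on low values and 3 passed the test, all of them lower in iECKO samples, against 4.97% of all tested genes that were called lower. Libraries of the genotypes did not overlap for *Agt*, *Ace*, *Enpep* and *Agtr1a*, all lower in iECKO samples, whereas 29.8% of tested genes had no overlap in either direction and 15.0% had every iECKO library lower. *Agtr1b* did not overlap either, but it passed the filter only through its control libraries and is not read against these shares. An exact permutation test of a single gene cannot give a two-sided *P* below 0.1 with 3 samples against 3, and it gave 0.1 for *Agt*, *Ace*, *Enpep* and *Agtr1a*. The plot of members by library shows all of these values.

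**Figure D1:**
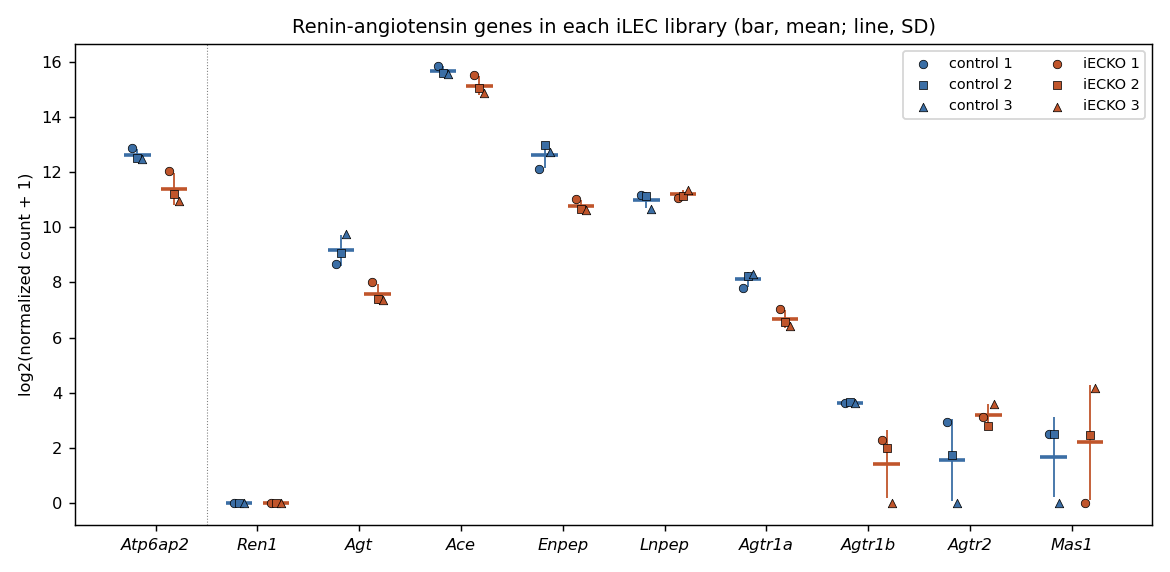
Log2 of the normalized count plus 1 for Atp6ap2 and the 9 renin-angiotensin genes in each of the 3 control (blue) and 3 iECKO (orange) libraries, with the mean as a bar and the SD as a vertical line. Agt, Ace, Enpep, Agtr1a and Agtr1b have no iECKO point as high as any control point, and Ren1 lies at 0 in all 6 libraries.

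*Ren1* (chr1:133350510-133360325), the mouse renin gene, was listed at 0 in each of the 6 libraries and was not tested. As the table holds no read counts, a value of 0 is given only as listed. *Agt* (chr8:124556534-124569706) measured 406.9, 531.2 and 865.9 normalized counts in control replicates 1 to 3 and 257.6, 167.9 and 163.1 in iECKO replicates 1 to 3. Control replicate 3 was the highest and every iECKO library lay under every control library. *Agt* fell from 601.3 ± 237.4 to 196.2 ± 53.2 (SD, n = 3 each), 32.6% of control, with a log2 fold change of -1.57 (SE 0.29, 95% CI -2.25 to -0.89, adjusted *P* = 0.0218). The call was lost without control replicate 3 (-1.27, adjusted *P* = 0.0583), iECKO replicate 2 (-1.48, 0.0770) or iECKO replicate 3 (-1.46, 0.0854).

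*Ace* carried most of the transcript of the set. The promoter stretches of *Ace* and *Enpep* are shown because these were the members with the highest levels per kilobase and because they differ in the short motifs they hold. The 250 bases before the RefSeq start of each gene (GRCm38.p6) run from chr11:105967698-105967947 on the plus strand for *Ace* and from chr3:129332750-129332999 on the minus strand for *Enpep*, written 5′ to 3′ along the gene, with capitals on each match to TATAAA or GGGCGG on either strand:
Ace: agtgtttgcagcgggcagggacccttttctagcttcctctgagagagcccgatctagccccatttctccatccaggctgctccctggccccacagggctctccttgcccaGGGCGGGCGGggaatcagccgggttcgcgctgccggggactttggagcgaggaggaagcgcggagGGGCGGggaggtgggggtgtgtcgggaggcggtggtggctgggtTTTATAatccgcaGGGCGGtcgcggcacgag
Enpep: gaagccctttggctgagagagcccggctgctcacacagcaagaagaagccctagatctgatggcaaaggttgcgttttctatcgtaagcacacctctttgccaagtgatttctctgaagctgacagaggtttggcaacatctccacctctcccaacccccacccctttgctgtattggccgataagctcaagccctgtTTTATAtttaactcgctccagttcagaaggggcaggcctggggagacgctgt
The *Ace* stretch held 4 matches to GGGCGG, the core of a GC box, the first 2 of which overlap, and 1 to TATAAA on the opposite strand, 31 bases before the start. The *Enpep* stretch held 1 match to TATAAA, also on the opposite strand and 52 bases before the start, and 0 to GGGCGG. Among 32851 RefSeq promoter stretches of this length, 12.4% held TATAAA and 32.7% GGGCGG. Of the 8 members with a RefSeq entry, 5 held TATAAA (*Ren1*, *Agt*, *Ace*, *Enpep* and *Agtr1b*) and 2 held GGGCGG (*Ace* and *Lnpep*). A match is a description of the letters in the window and not a site of binding.

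*Ace* (chr11:105967945-105989964) measured 59082, 49693 and 48484 normalized counts in control replicates 1 to 3 and 46992, 33562 and 29521 in iECKO replicates 1 to 3. All iECKO libraries were below all control libraries, but iECKO replicate 1 was only slightly below control replicate 3. The means were 52419.7 ± 5801 and 36692 ± 9146 (SD, n = 3 each), 70.0% of control, and the log2 fold change of -0.54 (SE 0.18, 95% CI -0.96 to -0.12) did not pass the test (adjusted *P* = 0.120, unadjusted *P* = 0.0186). It passed when iECKO replicate 1, the iECKO library with the most *Atp6ap2*, was left out (-0.73, adjusted *P* = 0.0373). RefSeq lists a second start for *Ace*, the one known from male germ cells, at position 105975189, after exon 12 of 25, and the table, with 1 value per gene, cannot separate transcripts from the starts. The antisense gene *Gm11651* overlaps *Ace* and the library kit does not mark strand, but its normalized counts were only between 22.4 and 38.9.

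*Enpep* had the largest fold change of the called members. *Enpep* (chr3:129269175-129332720) measured 4412, 8179.8 and 6788 normalized counts in control replicates 1 to 3 and 2099, 1622 and 1581 in iECKO replicates 1 to 3. The lowest control library held more than 2 times the transcript of the highest iECKO library, and the iECKO libraries varied less than the controls. *Enpep* fell from 6460.1 ± 1905 to 1767 ± 287.9 (SD, n = 3 each), 27.4% of control, with a log2 fold change of -1.84 (SE 0.22, 95% CI -2.34 to -1.33, adjusted *P* = 0.00831). It passed the test with any 1 library left out, with fold changes between -2.09 and -1.64. Of all tested genes, 86 (0.595%) had a lower log2 fold change.

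*Lnpep*, the other aminopeptidase of the set, overlapped between genotypes. *Lnpep* (chr17:17521410-17625050) measured 2317, 2241 and 1600.1 normalized counts in control replicates 1 to 3 and 2141, 2251 and 2626 in iECKO replicates 1 to 3. Control replicate 3 stood below the other libraries, which lay within 2141 to 2626. The means were 2052 ± 393.6 and 2339 ± 253.9 (SD, n = 3 each), with a log2 fold change of 0.20 (SE 0.15, adjusted *P* = 0.473), and the 95% CI of -0.15 to 0.55 allowed a small difference either way.

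**Figure D2:**
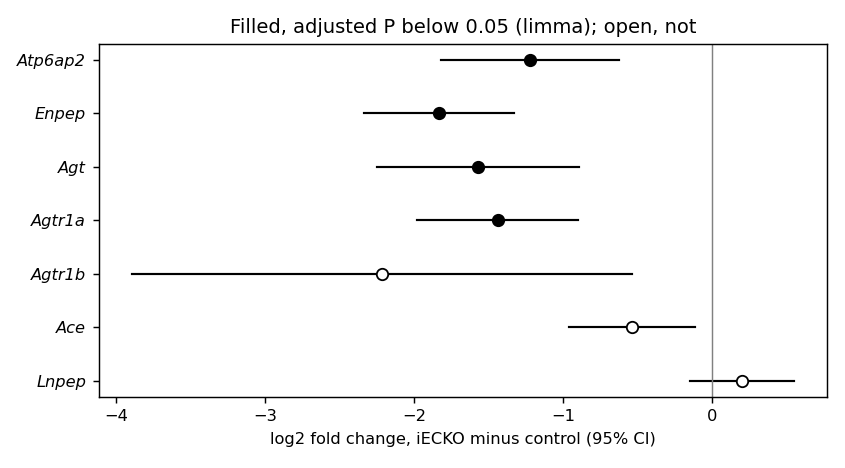
Log2 fold change (iECKO minus control, x axis) with its 95% CI for Atp6ap2 and the 6 renin-angiotensin genes that were tested. Filled points (*Atp6ap2*, Enpep, Agt and Agtr1a) passed an adjusted *P* of 0.05, and the interval of Lnpep crosses 0 while those of Agtr1b and Ace do not, although neither passed after adjustment.

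The type 1 receptor genes of the mouse are near copies, which bears on how far their reads can be assigned. Over their 1080 coding bases, 981 (90.8%) were identical in GRCm38, with 0 gaps and a longest identical run of 66 bases. The first 90 coding bases are shown to make this visible, with capitals on the 8 positions that differ, from chr13:30380954-30381043 on the plus strand for *Agtr1a* and from chr3:20316351-20316440 on the minus strand for *Agtr1b*:
Agtr1a: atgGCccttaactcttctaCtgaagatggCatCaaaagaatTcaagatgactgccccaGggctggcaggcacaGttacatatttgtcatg
Agtr1b: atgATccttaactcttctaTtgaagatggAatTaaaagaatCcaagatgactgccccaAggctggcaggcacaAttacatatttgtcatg
How reads matching both genes were counted is not given in the sources used here, so the split between them is uncertain and their sum is also given.

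*Agtr1a* (chr13:30336441-30382867) measured 219.8, 297.1 and 317.5 normalized counts in control replicates 1 to 3 and 130.1, 93.9 and 83.8 in iECKO replicates 1 to 3. The highest iECKO library, replicate 1, was below the lowest control library, also replicate 1. *Agtr1a* fell from 278.1 ± 51.5 to 102.6 ± 24.3 (SD, n = 3 each), 36.9% of control, with a log2 fold change of -1.44 (SE 0.23, 95% CI -1.98 to -0.90, adjusted *P* = 0.0144). The call was lost without control replicate 3 (-1.33, adjusted *P* = 0.0599), iECKO replicate 2 (-1.39, 0.0563) or iECKO replicate 3 (-1.31, 0.0602).

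*Agtr1b* (chr3:20314473-20367177) was at the edge of detection. Its normalized counts were 11.2, 11.7 and 11.4 in control replicates 1 to 3 and 3.83, 2.99 and 0 in iECKO replicates 1 to 3, which by the step of each library were about 5 reads in each control library and about 2, 2 and 0 in iECKO libraries. As the filter fixed its direction, no support is drawn from it, and its log2 fold change of -2.22 (SE 0.73, adjusted *P* = 0.110) depends on the pseudocount. The sum of *Agtr1a* and *Agtr1b* was 231.0, 308.8 and 328.8 in control replicates 1 to 3 and 133.9, 96.9 and 83.8 in iECKO replicates 1 to 3. These sums did not overlap between genotypes, with means of 289.6 ± 51.7 and 104.9 ± 26.0 (SD, n = 3 each; two-sided exact permutation *P* = 0.1, as low as 3 against 3 allows). *Agtr1a* made up most of each sum.

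The remaining receptors were too low to test. *Agtr2* (chrX:21484544-21489164) measured 6.66, 2.37 and 0 normalized counts in control replicates 1 to 3 and 7.80, 5.98 and 11.1 in iECKO replicates 1 to 3, between 0 and about 6 reads per library (exact permutation test, two-sided *P* = 0.2, n = 3 each). *Mas1* (chr17:12841079-12868143) had 4.61, 4.68 and 0 in controls and 0, 4.50 and 16.9 in iECKO samples, between 0 and about 9 reads per library (exact permutation test, two-sided *P* = 1, n = 3 each). Both overlapped between genotypes, and no direction could be read at this depth. *Mas1* is also overlapped by the antisense RNA *Airn*, which had between 233.3 and 276.7, and without strand their reads cannot be told apart.

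Set side by side per kilobase of their longest coding transcript, the control levels differed widely. In control libraries, *Ace* had the highest level of the set with a mean of 10685 normalized counts per kilobase (range 9883 to 12043), rank 79 of the 24490 genes with a length, and the endothelial markers *Cdh5* and *Pecam1* ranked 16 and 39. *Enpep* followed with 1545 (1055 to 1956), then *Agt* with 318 (215 to 458), *Lnpep* with 170 (133 to 192) and *Agtr1a* with 126 (100.0 to 144). The ranges of *Lnpep* and *Agtr1a* overlapped, while those of each earlier pair of neighbours did not. *Agtr1b*, *Mas1* and *Agtr2* had means of 5.34, 1.29 and 0.92 per kilobase.

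In iECKO libraries the order per kilobase was *Ace* with a mean of 7479 (6017 to 9578), *Enpep* with 423 (378 to 502), *Lnpep* with 194 (178 to 218), *Agt* with 104 (86.2 to 136) and *Agtr1a* with 46.7 (38.1 to 59.2), and the ranges of these neighbours did not overlap. *Agt* and *Lnpep* had thus traded places, *Agt* having fallen while *Lnpep* overlapped between genotypes. *Mas1*, *Agtr2* and *Agtr1b* had means of 2.97, 2.53 and 1.06 per kilobase.

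The calls were then set against the libraries that went against their label. With presence of *Xist* as a covariate, the adjusted *P* was 0.0293 for *Agt*, 0.0254 for *Agtr1a*, 0.0139 for *Enpep*, 0.0408 for *Atp6ap2* and 0.158 for *Ace*. Within the 4 libraries high in *Xist*, 2 against 2, the log2 fold changes were -1.18 for *Agt*, -1.28 for *Agtr1a*, -1.72 for *Enpep* and -1.19 for *Atp6ap2*, and none of them passed, in a fit that called 1 gene of the whole table. In the pair low in *Xist*, control replicate 3 and iECKO replicate 2, the normalized counts of *Agt* were 865.9 and 167.9, those of *Agtr1a* 317.5 and 93.9 and those of *Enpep* 6788 and 1622.

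The genes whose log2 values followed each tested member most closely over the 6 libraries were named as a description, among 11321 genes with a mean of at least 100. All 6 libraries enter each Pearson r, so a shared difference between genotypes raises it. For *Enpep* these were *Lama2* (r = 0.999), a laminin chain, *Gucy1a1* (0.999), a subunit of soluble guanylate cyclase and one of the pericyte markers used below, and *Col1a2* (0.999), a chain of type I collagen and one of the fibroblast markers. For *Agtr1a* they were *Adcy2* (0.999), an adenylyl cyclase, *Ndufa4l2* (0.999) and *Adamts8* (0.999), a secreted metalloprotease. For *Agt* they were *Cryab* (0.997), a small heat shock protein, *Csad* (0.996), an enzyme of taurine synthesis, and *Chpf* (0.994), which takes part in chondroitin synthesis.

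For *Ace* the closest were *Nradd* (0.995), *Fchsd2* (0.992) and *Scube1* (0.989), none of which passed the test. For *Lnpep* they were *Itga2* (0.981), the integrin α2 subunit, *Eva1a* (0.979) and *Kmt2c* (0.975), a histone methyltransferase. For *Agtr1b*, whose values rest on a few reads, they were *Pcnx4* (0.990), *Pgrmc1* (0.990) and *Gm15772* (0.988).

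Markers of endothelium and of other lung cell types were examined in the same libraries. The purity of iLECs was also examined by immunoblot in the study, which was not analysed here. The iLECs had high levels of the endothelial markers, of which none was at 0, and *Cdh5* was the most abundant (92569 ± 17220 in controls and 96010 ± 7186 in iECKO samples, SD, n = 3 each). Of 15 endothelial markers tested, 1 fell, against 4.97% of all tested genes that were called lower and 8.25% called in either direction. It was the angiopoietin receptor *Tek* (-0.53, adjusted *P* = 0.0292), and *Ptprb* (-0.68, adjusted *P* = 0.0527) and *Plvap* (-0.41, adjusted *P* = 0.148) also had every iECKO library below every control without passing, while *Emcn* and *Egfl7* had every iECKO library above every control without passing. These 3 of 15 lower and 2 of 15 higher markers without overlap compare with 15.0% and 14.7% of all tested genes. The median log2 fold change of the list was 0.00 and its summed level was 93.5% of control.

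Of 11 pericyte markers, all tested, 9 fell, against 4.97% of all tested genes, with a median log2 fold change of -1.53 against 0.00 over all tested genes. Their summed normalized counts were 29503, 42191 and 41256 in control replicates 1 to 3 and 15189, 11868 and 11086 in iECKO replicates 1 to 3, and the matricellular protein gene *Postn* was the most abundant. Of 10 fibroblast markers tested, 9 fell, against the same 4.97%, with a median of -1.53. Their sums were 76082, 119787 and 104920.4 in controls and 37842, 29133 and 26540 in iECKO samples, with the microfibril gene *Mfap4* the most abundant. Neither list had a marker at 0 in all libraries. In the sums of both lists, control replicate 1 was the lowest control library and iECKO replicate 1 the highest iECKO library. *Enpep*, *Agt* and *Agtr1a* had the same order, but so did *Mme*, *Serping1* and *Ednra* of the lists below, while *Rgs4* did not. For *Atp6ap2* and *Ace*, iECKO replicate 1 was also the highest iECKO library, but control replicate 1 was the highest control library. The part of these cell types in the lower *Enpep*, *Agt* and *Agtr1a* levels was not tested.

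Of 11 smooth muscle markers tested, 3 fell, against 4.97% of all tested genes (median -1.38), and their sums were 8828, 12645 and 11977 in controls and 6561, 7914 and 7513 in iECKO samples, 65.7% of control. The cytoskeletal gene *Smtn* was the most abundant, with 5535 ± 621.8 in controls and 5276 ± 547.1 in iECKO samples (SD, n = 3 each), 95.3% of control, and so weighed heavily in the sums. Of 12 epithelial markers tested, 1 rose, the club cell gene *Scgb1a1* (1.75, adjusted *P* = 0.0408), with a median of -0.07, while 3.28% of all tested genes were called higher and 8.25% in either direction. Their sums, led by the surfactant gene *Sftpc*, were 33665, 29925 and 75580 in controls and 44318, 36547 and 36821 in iECKO samples, and control replicate 3 alone made the iECKO mean (84.6% of control) the lower one. Without that library the median was 0.30 and 0 of 12 markers were lower, against 9 of 12 with it. None of the 3 mesothelial, 10 leukocyte and 2 mast cell or basophil markers tested passed limma's test (1, 0 and 1 had an unadjusted *P* below 0.05), and their summed levels, led by *Msln*, *Lyz2* and *Mcpt8*, were 66.0%, 115% and 195% of control. The leukocyte sums overlapped between genotypes (5752 to 10554 in controls and 4857 to 13690 in iECKO samples), as did the mesothelial sums (294.9 to 915.0 and 365.6 to 426.8). The mast cell and basophil sums were low, between 19.3 and 80.8 in all 6 libraries.

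**Figure D3:**
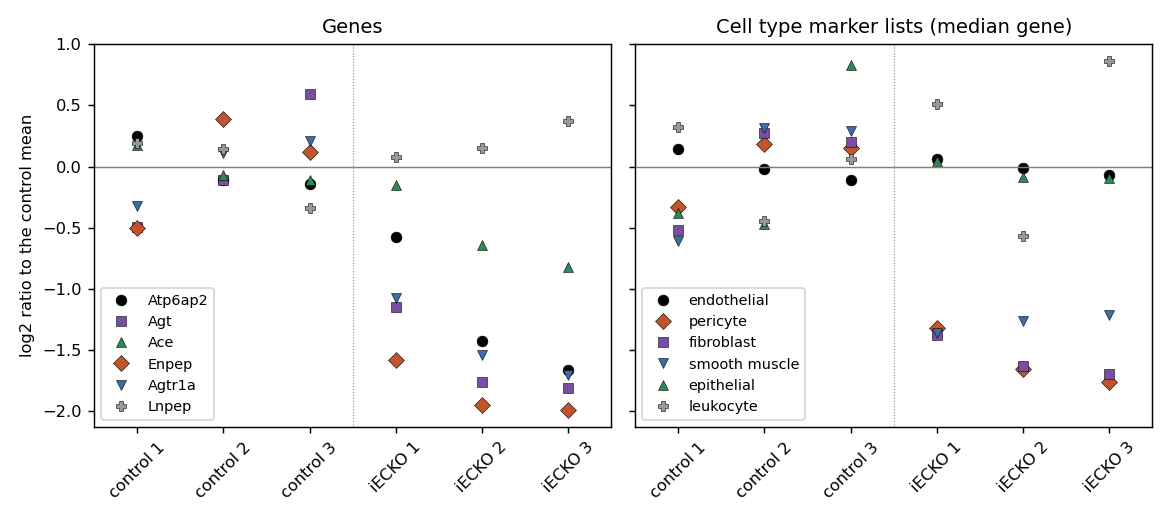
Log2 ratio to the control mean (y axis) in each of the 6 libraries (x axis), for Atp6ap2 and 5 renin-angiotensin genes (left) and for the median gene of 6 cell type marker lists (right). Agt, Enpep and Agtr1a lie below 0 in all iECKO libraries, as do the pericyte medians (-1.32, -1.65 and -1.76). The fibroblast and smooth muscle medians do so too, while the endothelial medians stay between -0.11 and 0.14.

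Other peptidases that form or degrade angiotensins moved in both directions. Of 16 in the table, 11 were tested, 1 fell and 2 rose, against 4.97% and 3.28% of all tested genes, with a median log2 fold change of 0.23. *Mme*, which encodes neprilysin, an enzyme that makes angiotensin-(1-7), measured 861.8, 1171 and 988.7 normalized counts in control replicates 1 to 3 and 426.8, 351.5 and 316.4 in iECKO replicates 1 to 3. No iECKO library reached the lowest control library. *Mme* fell by 1.46 on the log2 scale (adjusted *P* = 0.00774), and passed with any 1 library left out. *Nln* (neurolysin) and *Prep* (prolyl endopeptidase) rose by 0.45 and 0.41 (adjusted *P* = 0.0393 and 0.0271). *Nln* did not pass with any 1 library left out, and without control replicate 1 or 3 or iECKO replicate 2 or 3 only 1 of the 11 genes passed.

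Among the peptidases, *Prcp* (prolylcarboxypeptidase, which cleaves angiotensin II) had the highest level per kilobase and a log2 fold change of 0.26 (adjusted *P* = 0.239). The mast cell carboxypeptidase *Cpa3* measured 8.95, 7.07 and 2.29 normalized counts in controls and 25.0, 20.8 and 12.98 in iECKO samples. It passed the filter on low values only through its iECKO libraries, which fixed its direction, and it did not pass the test (adjusted *P* = 0.129). The chymase gene *Cma2* was listed at 0 in all libraries.

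Genes that handle prorenin or process its receptor did not pass the test. All 9 were tested, 0 passed, against 8.25% of all tested genes, and 1 had an unadjusted *P* below 0.05, against 3453 of all 14456, with a median of -0.07 that was 0.03 without control replicate 1. That gene was *Pcsk5*, a proprotein convertase, with normalized counts of 10402, 7106 and 6968 in controls and 6201, 4259 and 3916 in iECKO samples, a log2 fold change of -0.77 and an adjusted *P* of 0.0612. Its libraries did not overlap, and it passed without iECKO replicate 1. *Ctsb* (cathepsin B) had the highest level per kilobase of the list, and a fold change of -0.07 on the log2 scale (adjusted *P* = 0.850).

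Among partners and transducers of angiotensin receptors, 4 of 11 tested genes fell and 0 rose, against 4.97% and 3.28% of all tested genes, with a median of -0.31. *Rgs4*, which speeds the shut-off of Gq and Gi proteins, had normalized counts of 693.7, 888.0 and 980.6 in controls and 281.5, 302.1 and 312.8 in iECKO samples. Its iECKO libraries were close to each other and all below the controls. *Rgs4* fell (log2 fold change -1.50, adjusted *P* = 0.00703) and passed with any 1 library left out. *Rgs2*, which acts on Gq, *Nr3c2*, the mineralocorticoid receptor through which aldosterone acts, and *Arap1*, a GTPase-activating protein, fell by 0.90, 0.91 and 0.67 on the log2 scale (adjusted *P* = 0.0194, 0.0191 and 0.0169). Without control replicate 3 or iECKO replicate 3 only 1 of the genes passed, and without iECKO replicate 2 there were 2. *Arrb1* (β-arrestin 1) had the highest level per kilobase (-0.34, adjusted *P* = 0.124), and *Agtrap*, whose product binds the type 1 receptor, differed by -0.29 on the log2 scale (adjusted *P* = 0.288).

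In the kallikrein-kinin system, whose peptide bradykinin is degraded by angiotensin-converting enzyme, 2 of 7 tested genes fell and 0 rose, against 4.97% and 3.28% of all tested genes, with a median of 0.23 that became -0.13 over the 5 genes with a mean of at least 50. *Serping1*, the C1 inhibitor that restrains plasma kallikrein, had normalized counts of 1711, 2385 and 2236 in controls and 929.3, 603.7 and 577.1 in iECKO samples. The genotypes did not overlap, and *Serping1* fell (log2 fold change -1.60, adjusted *P* = 0.00883), also with any 1 library left out. *Cpm*, a membrane carboxypeptidase that cleaves kinins, fell by 1.12 on the log2 scale (adjusted *P* = 0.0158), a call that was lost without control replicate 3 or iECKO replicate 2 or 3. *Cpd*, a carboxypeptidase of the same family, had the highest level per kilobase (-0.13, adjusted *P* = 0.578), and the log2 fold changes of the kinin receptor genes *Bdkrb1* and *Bdkrb2* were 0.91 (adjusted *P* = 0.195) and 0.44 (0.197). *Kng1*, the kininogen gene, and *F12* were listed at 0 in all libraries.

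Other vasoactive systems gave 1 gene that rose and 5 that fell of 15 tested, against 3.28% and 4.97% of all tested genes, with a median of -0.34 that was -0.17 without control replicate 1 and -0.52 without control replicate 3. *Ednra*, the endothelin A receptor, had normalized counts of 1729, 2463 and 2502 in controls and 876.2, 820.6 and 769.9 in iECKO samples. The iECKO libraries were again close to each other and below every control. *Ednra* fell by 1.42 on the log2 scale (adjusted *P* = 0.00731) and passed with any 1 library left out. *Ptgir* (the prostacyclin receptor), *Adm* (adrenomedullin), *Npr3* and *Npr2* (natriuretic peptide receptors) fell by 1.28, 1.08, 0.91 and 0.78 on the log2 scale (adjusted *P* = 0.0321, 0.0396, 0.0394 and 0.0280), and *Apln* (apelin) rose by 0.87 (adjusted *P* = 0.0284). Without control replicate 1 or 2 there were 2 calls, and without control replicate 3 or iECKO replicate 2 or 3 there was 1. *Calcrl*, the receptor component for adrenomedullin, had the highest level per kilobase (-0.47, adjusted *P* = 0.228).

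**Figure D4:**
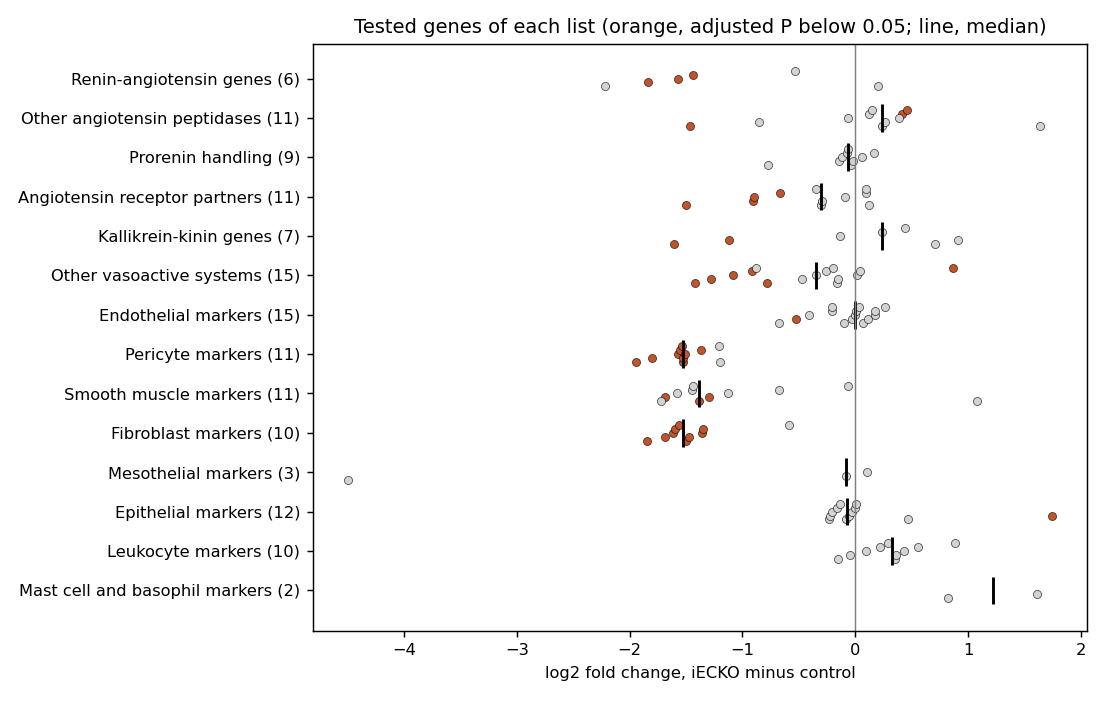
Log2 fold change (iECKO minus control, x axis) of each tested gene in the renin-angiotensin set and 13 lists, with the number tested in brackets, orange for an adjusted *P* below 0.05 and a line at the median of each list except the first. Agt, Enpep and Agtr1a lie among the pericyte and fibroblast markers (medians -1.53 and -1.53), and the smooth muscle median is -1.38. Mme, Rgs4, Serping1 and Ednra of other lists lie at similar values (-1.46, -1.50, -1.60 and -1.42). Most other angiotensin peptidases lie near or above 0.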

How the data were processed

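RNA was sequenced from bead-captured lung endothelial cells of 3 control and 3 iECKO samples at P7, grouped by the genotype in their labels. The authors aligned reads to mm10 and quantified genes with the BaseSpace RNA-Seq tools, and the annotation is not given in the sources used here. The deposited values are a normalized signal per gene (normalized counts): the labels call them raw counts, but they are not whole numbers and their median ratio to the geometric mean is equal in all libraries. A count model was therefore not used and no counting interval is given. Precision is given by the spread over 3 libraries per genotype.

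Log2(value + 1) was compared between genotypes for genes that reached 10 in 3 or more libraries, using limma (version 3.58.1, R version 4.3.3) with a trended prior variance and no covariate. Adjustment was by Benjamini and Hochberg. The test was tried on simulated data, but the outcome is not given here and no support is drawn from it. Single values were compared with exact permutation tests in scipy 1.17.1. Of 24972 symbols, 24490 (98.1%) matched GENCODE vM21 (GRCm38, the same build as mm10) for coordinates and lengths, and promoter stretches are from RefSeq on GRCm38.p6.

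Named genes were all members, *Atp6ap2*, genes of the pathway lists with an adjusted *P* below 0.05, the gene of each list with the highest level per kilobase and the 3 genes most like each tested member. Other genes were named after their values were seen. The members and lists were chosen with earlier results of these data known. Alternatives were other scalings, filters, pseudocounts, variance models and thresholds, a replicate block, an *Xist* covariate and each library left out. The values of 1 listed peptidase gene are not reported here. The authors' qPCR and protein data were not analysed here.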

Additional observations from a re-analysis of the deposited data

How the results depend on the processing

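Each of 14 results was recomputed under 20 alternatives, 2 of which (high-Xist libraries alone, a filter on a mean of at least 10) were chosen after seeing the data. Of 278 values, 44 moved, 20 lost their call and 2 gained one. No log2 fold change turned in sign, although changes of threshold, block, covariate or variance model leave the fold changes as they are. Without the mean-variance trend, 304 genes were called across the table, with 1 other angiotensin peptidase, 2 receptor partners, 1 kinin gene and 1 vasoactive gene, and *Atp6ap2* (-1.22, adjusted *P* = 0.0917) and *Agt* (-1.57, adjusted *P* = 0.0686) no longer passed. With the *Xist* covariate there were 767 calls, with 1 in the list of other angiotensin peptidases. At a threshold of 0.01 there were 90 calls, with 1 among the renin-angiotensin genes and 1 in each pathway list except 0 among prorenin handling genes, and *Atp6ap2* (-1.22), *Agt* (-1.57) and *Agtr1a* (-1.44) did not pass. At 0.1 there were 1987, with 1 prorenin handling gene. In the high-Xist libraries alone there was 1 call, 0 among the renin-angiotensin genes and in every pathway list, and *Atp6ap2* (-1.19), *Agt* (-1.18), *Agtr1a* (-1.28) and *Enpep* (-1.72) did not pass, with adjusted *P* = 0.222, 0.168, 0.174 and 0.125. With each library left out in turn, calls numbered 204 to 989 across the table, 1 to 4 for the renin-angiotensin genes, 1 to 2 for peptidases, 0 to 1 for prorenin handling, 1 to 5 for receptor partners, 1 to 2 for kinin genes and 1 to 6 for vasoactive genes, and the log2 fold changes spanned -1.54 to -0.999 for *Atp6ap2*, -1.82 to -1.27 for *Agt*, -0.73 to -0.39 for *Ace*, -1.62 to -1.31 for *Agtr1a*, -2.64 to -1.51 for *Agtr1b*, 0.03 to 0.30 for *Lnpep* and -2.09 to -1.64 for *Enpep*. The cause of these changes was not tested. Library size scaling moved the median of all genes from 0.00 to 0.05 and kept the direction of all 6 tested members. *Agtr1b* was left out by filters on a mean of at least 10 or 50.

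Replicate numbers are shared by the genotypes. For replicates 1 to 3, control and iECKO libraries with equal numbers had deviations that correlated by only 0.25, 0.11 and 0.08. Pairs with unequal numbers correlated negatively, between -0.21 and -0.03, with 1 exception. That was control replicate 3 with iECKO replicate 2 (0.10), the pair low in *Xist*, which lay above the 0.08 of replicate 3. Whether equal numbers mark paired samples was not tested. With a replicate block, 1508 genes were called (670 higher, 838 lower), 1 prorenin handling gene among them, and *Ace* passed (-0.54, adjusted *P* = 0.0266). At the depth of these libraries, differences in *Agtr2* and *Mas1* were not detectable here. *Ren1* was listed at 0 in all 6 libraries, so no difference could be read for it.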
